A study of Mus musculus with 2 samples.

Results

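Nodal, activins and their relatives are secreted ligands of the transforming growth factor beta family, and 10 genes of their extracellular and membrane machinery are described here, chosen by their gene symbols and all found among the 18032 genes of the deposited table. They are the ligand genes Nodal, Gdf3 and Inhbb, the co-receptor gene Tdgf1, the receptor genes Acvr1b, Acvr2a and Acvr2b, and the antagonist genes Lefty1, Lefty2 and Fst. All 10 passed the abundance filter of 1 CPM (counts scaled to library size) in at least 1 library, which 13243 genes passed in all. Polyadenylated RNA was sequenced from 1 library of converted epiblast stem cells (cEpiSC) and 1 library of mouse embryonic stem cells (mESC), so differences could not be checked against replicates or tested. The mESC were wild-type E14TG2a cells, a single established line, in serum-free N2B27 with 1 µM PD0325901, which blocks the ERK pathway, 3 µM CHIR99021, which inhibits GSK3, and LIF at 100 units/ml, a medium called 2iLIF. The cEpiSC, likewise labelled wild type, were made from mESC plated on fibronectin in 2iLIF and moved after 24 h into N2B27 with FGF2 at 12 ng/ml and activin A at 20 ng/ml for 2 days. An agonist of the pathway was thus added to the cEpiSC medium and is not listed for 2iLIF, and the effect of the medium cannot be told apart from that of the change of state.

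A ligand dimer joins type II receptors, here Acvr2a and Acvr2b, to a type I receptor such as Acvr1b (also called ALK4), which phosphorylates Smad2 and Smad3. These enter the nucleus with Smad4 and act with DNA-binding partners such as FoxH1. Nodal needs a co-receptor such as Cripto, the product of Tdgf1, whereas activins do not. Lefty proteins block Nodal and are themselves induced by it, and follistatin, the product of Fst, binds activins and keeps them from their receptors. The pathway sustains the primed pluripotent state of the mouse epiblast and later patterns the primitive streak.

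The libraries held 2.00e+07 (cEpiSC) and 1.98e+07 (mESC) estimated counts. Levels are given in TPM, which scales counts to transcript length and library size. Markers of the states went with the labels: the 4 primed or formative markers, among them Otx2 (217 TPM in cEpiSC and 33.6 TPM in mESC) and Dnmt3b (118 and 22.4 TPM), were all at least 2-fold higher in cEpiSC, and Fgf5 had 276 counts in cEpiSC and 0 in mESC. Of the 6 naive markers 4 were at least 2-fold lower and 2 within 2-fold, and the most abundant, Zfp42 and Esrrb, stood at 282 and 173 TPM in cEpiSC, against 533 and 391 TPM in mESC. The summed level of the 6 mesendoderm markers was 7.75 TPM in cEpiSC and 32.4 TPM in mESC (of 4 measured Gsc, T and Mixl1 were lower, and Foxa2 had 0 counts in cEpiSC). The most abundant of them were Gsc, at 0.47 TPM in cEpiSC and 22.6 TPM in mESC, and Eomes, within 2-fold at 6.60 and 6.75 TPM. The 6 extraembryonic endoderm markers summed to 14.5 TPM in cEpiSC and 33.5 TPM in mESC (of 5 measured 2 were lower and 3 within 2-fold; the most abundant were Dab2 and Gata6). Trophoblast markers summed to 27.1 and 54.3 TPM (of 3 of 5 genes measured 1 was higher and 1 lower, the most abundant being Tfap2c and Krt7, with Cdx2 at 0 counts in cEpiSC), neural markers to 6.76 and 9.34 TPM (of 3 measured 1 was higher and 1 lower, the most abundant being Nes and Sox1) and fibroblast markers to 5.72 and 2.04 TPM (of 2 of 5 measured 1 was higher, the most abundant being Thy1 and Col1a1, with Col3a1 and Dcn at 0 in mESC). Single genes weighed on the endoderm, trophoblast and neural sums. Dab2 stood at 6.53 TPM in cEpiSC and 24.55 TPM in mESC, Tfap2c at 23.5 and 52.2 TPM, and Nes at 3.41 and 7.71 TPM. The median log2 ratios of cEpiSC over mESC of the measured genes in these lists were 0.40, 0.17 and 0.74. These medians lie above 0, although the sums were lower in cEpiSC. A count of 0 allows up to 3 counts by counting error alone (a 1-sided 95% limit), which equals 0.147 CPM in cEpiSC and 0.155 CPM in mESC. The exact 95% Poisson limits given below are 2-sided and therefore higher for a count of 0. The part of such cells in the values below was not tested, and in bulk RNA fewer cells of a type cannot be told apart from less RNA per cell.

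Of the 10 pathway genes, 3 exceeded their mESC level by 2-fold or more in cEpiSC (Lefty1, Inhbb and Tdgf1) and 2 were at least 2-fold lower (Acvr1b and Fst), while Nodal, Lefty2, Gdf3, Acvr2a and Acvr2b lay within 2-fold. Of all 13243 genes measured, 13.6% were at least 2-fold higher and 9.25% at least 2-fold lower. Over 10 genes chosen with results known, the counts of 3 and 2 are a description and are not read as particular to the set. The counting interval of the ratio lay wholly above 0 for 6 of the 10 genes and wholly below 0 for 2, while over all genes the shares were 36.6% and 39.1%. The median log2 ratio of cEpiSC over mESC was 0.42 for the 10 genes and -0.02 for all genes measured. Summed over the 10 genes the level was 1446 TPM in cEpiSC and 720.4 TPM in mESC, and Tdgf1 alone made 691 and 274 TPM of these sums.

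**Figure D1:**
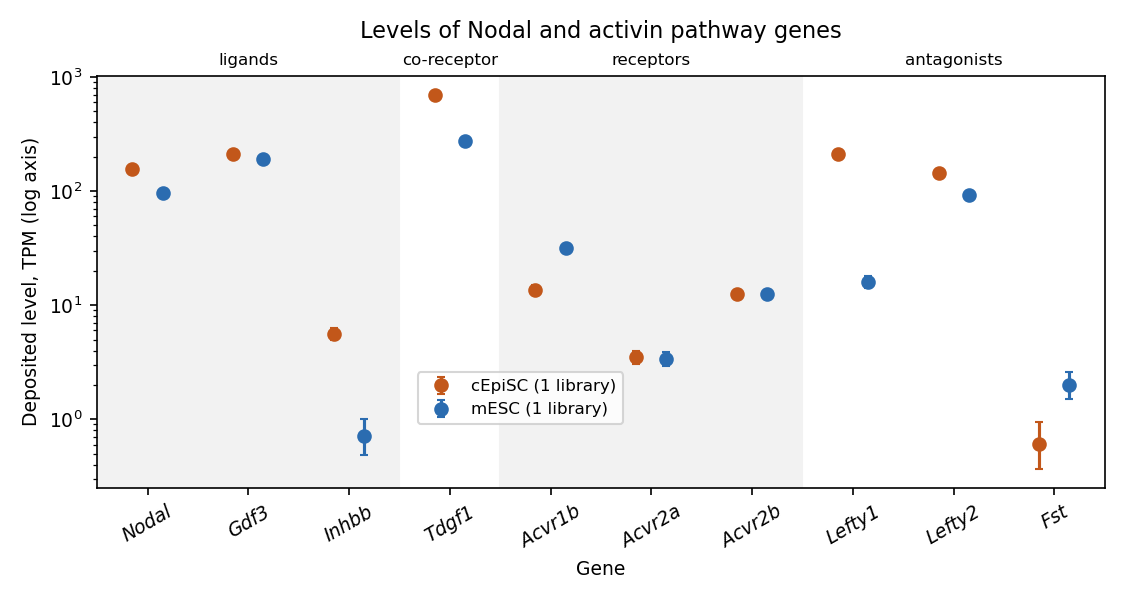
Deposited level of each of the 10 genes in TPM on a log axis, in the 1 cEpiSC library (orange) and the 1 mESC library (blue), grouped by role; bars are exact 95% Poisson intervals, which cover counting error only and are often smaller than the points. Lefty1 stands at 212 TPM in cEpiSC and 16.0 TPM in mESC, whereas Acvr2b stands at 12.5 TPM in both.

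Log2 ratios below are of CPM after TMM scaling, with a prior count of 2, and run from cEpiSC over mESC. Each is followed in brackets by the exact 95% interval of the ratio, which covers counting error only. Reads amplified by PCR and not tagged by molecule do not count molecules independently, and the intervals do not include error between cultures. Folds are CPM ratios without the prior count.

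The 3 ligand genes differed in their ratios, from near equality for Gdf3 to a large difference for Inhbb. Nodal (Entrez 18119, chromosome 10, 61417972 to 61425338 in GRCm38.p6) had 3655 estimated counts in cEpiSC and 2073 in mESC, or 155 and 96.0 TPM. It was 1.67-fold higher in cEpiSC, with a log2 ratio of 0.74 (0.66 to 0.82), which lies wholly above 0 and wholly below 2-fold. Gdf3 (Entrez 14562, chromosome 6, 122605403 to 122610087), whose product is a relative of Nodal that also acts through Cripto, had 3587 counts in cEpiSC and 3043 in mESC, or 209 and 192 TPM. Its log2 ratio was 0.16 (0.09 to 0.23), and this small value moved between 0.05 and 0.24 with the processing. By deposited TPM Gdf3 stood at 1.35 times the level of Nodal in cEpiSC and 2.00 times in mESC. With the longest GENCODE vM21 transcript lengths and the same counts these ratios are 0.968 in cEpiSC and 1.45 in mESC. The counts were not taken anew on these lengths, so these ratios cannot decide the order of Gdf3 and Nodal in cEpiSC.

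Inhbb (Entrez 16324, chromosome 1, 119415463 to 119422248) encodes the inhibin beta B subunit, of which activin B is a homodimer. It had 277 counts in cEpiSC and 32 in mESC, or 5.64 and 0.71 TPM, and was 8.18-fold higher in cEpiSC (log2 ratio 2.96 [2.50 to 3.61]). Its ratio ranked 338 from the top among the 13243 genes, although its level stayed far below those of Nodal and Gdf3. On the scale log2(TPM + 1) the Inhbb difference was 1.96, and 1.64 with FPKM, since a pseudocount weighs on low levels. Of the other inhibin subunit genes, Inhbe, described below, had 16 counts in cEpiSC and 57 in mESC, more than the 32 of Inhbb in mESC. The rest, named after their values were seen, had few counts. Inhba, the subunit gene of activin A, had 1 and 0 counts in cEpiSC and mESC, Inha 13 and 4, and Inhbc 18 and 1. The exact 95% Poisson upper limit for Inhba, the transcript of the ligand supplied in the cEpiSC medium, was 0.272 CPM in cEpiSC and 0.191 CPM in mESC.

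Tdgf1 (Entrez 21667, chromosome 9, 110939608 to 110946158), the Cripto gene, was the most abundant of the 10 genes in both libraries. It had 14940 counts in cEpiSC and 5415 in mESC, or 691 and 274 TPM, and was 2.61-fold higher in cEpiSC (1.38 [1.34 to 1.43]). Relative to Nodal in the same library its level was 4.46 in cEpiSC and 2.85 in mESC, and the ratio itself differed 1.56-fold (1.47 to 1.67, exact conditional interval of the counts). The processed pseudogene Tdgf1-ps1 matches Tdgf1 at 98.8% of 512 aligned positions. It shares 4.69% of the 100-base windows of the longest GENCODE vM21 transcript of Tdgf1. The deposited Tdgf1 counts are whole numbers, but whether the authors' annotation held the pseudogene is not given. The part of pseudogene reads in the Tdgf1 counts was not tested. Of the 10 genes, 6 have an entry in the RefSeq promoter table of GRCm38.p6 (Lefty1, Lefty2, Gdf3 and Fst do not), which spans 250 bases before to 50 after the gene's start. The 3 with an entry that were at least 2-fold apart are printed here to show how unlike their start regions are in base content, 5′ to 3′ on the gene's strand. Capitals mark matches to TGTNNATT, a loose form of the FoxH1 motif, or to CAGAC, a short SMAD motif, on either strand; the TGTNNATT matches shown do not overlap the CAGAC match. Positions are chr9:110946109-110946408 on the minus strand for Tdgf1, chr1:119422199-119422498 on the minus strand for Inhbb and chr15:101173822-101174121 on the plus strand for Acvr1b.
Tdgf1: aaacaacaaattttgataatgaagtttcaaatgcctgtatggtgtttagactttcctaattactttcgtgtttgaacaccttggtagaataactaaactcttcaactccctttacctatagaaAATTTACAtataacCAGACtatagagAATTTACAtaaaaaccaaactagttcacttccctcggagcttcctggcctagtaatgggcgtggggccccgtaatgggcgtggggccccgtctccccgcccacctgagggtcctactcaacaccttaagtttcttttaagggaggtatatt
Inhbb: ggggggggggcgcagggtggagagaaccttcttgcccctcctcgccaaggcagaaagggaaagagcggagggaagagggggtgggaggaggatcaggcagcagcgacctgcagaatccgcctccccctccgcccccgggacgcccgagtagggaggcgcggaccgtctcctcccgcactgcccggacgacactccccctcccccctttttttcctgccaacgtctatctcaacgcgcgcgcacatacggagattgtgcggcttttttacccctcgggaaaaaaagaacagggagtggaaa
Acvr1b: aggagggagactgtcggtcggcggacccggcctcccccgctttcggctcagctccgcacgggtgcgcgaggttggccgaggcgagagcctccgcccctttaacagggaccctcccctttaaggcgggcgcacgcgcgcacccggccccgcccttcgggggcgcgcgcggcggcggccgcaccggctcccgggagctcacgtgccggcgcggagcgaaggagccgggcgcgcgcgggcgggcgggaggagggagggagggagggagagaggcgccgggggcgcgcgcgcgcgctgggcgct

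The Tdgf1 window held 2 matches to TGTNNATT, at -127 to -120 and -101 to -94 from the start, and 1 to CAGAC between them at -113 to -109. Among all 32851 RefSeq promoter windows of this length 12.2% hold TGTNNATT and 49.6% hold CAGAC, so neither match is rare. The printed Inhbb and Acvr1b windows hold neither motif. Across the 6 members with an entry, TGTNNATT occurred in 1 (Tdgf1) and CAGAC in 3 (Tdgf1, Acvr2a and Acvr2b), and neither the strict FoxH1 motif TGTGGATT (0.855% of all windows) nor the SMAD palindrome GTCTAGAC (0.213%) occurred in any. Base content differed widely, at 41.7% G and C for Tdgf1, 54.0% for Nodal, 64.3% for Inhbb, 73.3% for Acvr2b, 79.7% for Acvr1b and 80.3% for Acvr2a, beside a median of 52.7% over all windows. Such matches are a description of these letters, and binding was not measured.

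Of the receptors, the type I gene was lower in cEpiSC while both type II genes differed by less than their counting error without length centring. Acvr1b (Entrez 11479, chromosome 15, 101174072 to 101213684) had 515 counts in cEpiSC and 1092 in mESC, or 13.7 and 31.8 TPM. It was 2.24-fold lower in cEpiSC, with a log2 ratio of -1.16 (-1.32 to -1.01), which lies only just beyond 2-fold. Acvr2b (Entrez 11481, chromosome 9, 119401583 to 119442148) had 1446 counts in cEpiSC and 1355 in mESC, or 12.5 and 12.5 TPM, a log2 ratio of 0.01 (-0.09 to 0.12). Acvr2a (Entrez 11480, chromosome 2, 48814109 to 48903264) had 208.32 estimated counts in cEpiSC and 199.5 in mESC, which are not whole numbers, or 3.48 and 3.38 TPM, a log2 ratio of -0.02 (-0.31 to 0.26). The signs of these 2 ratios turned under some scalings, to -0.003 for Acvr2b with TPM and 0.12 for Acvr2a after centring on length. Centring on length gave 0.33 for Acvr2b, outside its counting interval, so its value depends on how length is handled as well as on depth.

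Within each library Acvr2b exceeded Acvr2a, by 3.58-fold in cEpiSC (3.10 to 4.16) and 3.70-fold in mESC (3.19 to 4.31). The level of Acvr1b relative to Acvr2b was 1.10 in cEpiSC (0.992 to 1.22) and 2.54 in mESC (2.35 to 2.76), on the deposited TPM. These levels rest on the transcript length that the authors' files imply, 9831 and 10057 bases for Acvr2b in cEpiSC and mESC, which is longer than its longest GENCODE vM21 transcript of 3175 bases. With the longest protein-coding GENCODE vM21 transcript of each gene in place of the implied length, a setting chosen after seeing the data, Acvr2b would stand at 38.6 TPM in cEpiSC and 39.6 TPM in mESC, and Acvr1b at 9.89 and 22.9 TPM. The level of Acvr1b relative to Acvr2b is then 0.256 in cEpiSC and 0.579 in mESC. Only the length was exchanged and the counts were kept, which may include Acvr2b reads outside the GENCODE transcript. These values therefore cannot decide which of these receptor transcripts is more abundant. Acvr2b exceeds Acvr2a on either length. Acvr2a was also counted on different implied lengths, 5092 bases in cEpiSC and 5494 in mESC, and it overlaps Orc4 on the opposite strand; Acvr2b overlaps an antisense gene.

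The antagonists diverged most, with Lefty1 far higher, Lefty2 moderately higher and Fst lower in cEpiSC. Lefty1 (Entrez 13590, chromosome 1, 180935022 to 180938401) had 3768.85 estimated counts in cEpiSC and 260.03 in mESC, or 212 and 16.0 TPM. It was 13.7-fold higher in cEpiSC, with a log2 ratio of 3.77 (3.60 to 3.96), and ranked 140 from the top among the 13243 genes. Its neighbour Lefty2 (Entrez 320202, chromosome 1, 180893108 to 180899107), which lies 35914 bases away, had 4010.15 counts in cEpiSC and 2370.97 in mESC, or 143 and 92.2 TPM. Lefty2 was 1.60-fold higher in cEpiSC (0.68 [0.60 to 0.75]), a ratio close to that of Nodal.

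The order of the Lefty pair was therefore opposite in the 2 libraries. Lefty1 stood at 1.48 times the level of Lefty2 in cEpiSC (1.42 to 1.55) and at 0.173 times in mESC (0.152 to 0.197). The Lefty1 to Lefty2 ratio differed 8.57-fold between the libraries (7.48 to 9.85). The Lefty2 to Nodal ratio, in contrast, was 0.921 in cEpiSC and 0.960 in mESC, a 0.959-fold difference whose interval of 0.890 to 1.03 includes equality. Taking both Lefty genes, their summed level was 354 TPM in cEpiSC and 108 TPM in mESC, or 2.29 and 1.13 times that of Nodal. The transcripts of Lefty1 and Lefty2 match at 91.2% of 1159 aligned positions, and their counts are not whole numbers in either library. Of their longest transcripts, 4.80% of the 100-base windows of the Lefty1 transcript and 3.07% of those of Lefty2 occur unchanged in the other, and the implied Lefty1 length was 1511 bases in both libraries.

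Fst (Entrez 14313, chromosome 13, 114452262 to 114458989) was the least abundant of the 10 genes in cEpiSC, with 19 counts there and 55 in mESC, or 0.61 and 1.98 TPM. It was 3.06-fold lower in cEpiSC (-1.52 [-2.45 to -0.84]), an interval that lies below 0 but reaches within 2-fold. On the log2(TPM + 1) and log2(FPKM + 1) scales Fst was within 2-fold, and it does not reach 5 CPM in either library. It overlaps an antisense gene, so its few counts may include reads of that gene if strand was not used. The Inhbb to Fst ratio was 9.25 in cEpiSC (5.81 to 15.6) and 0.359 in mESC (0.224 to 0.564).

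**Figure D2:**
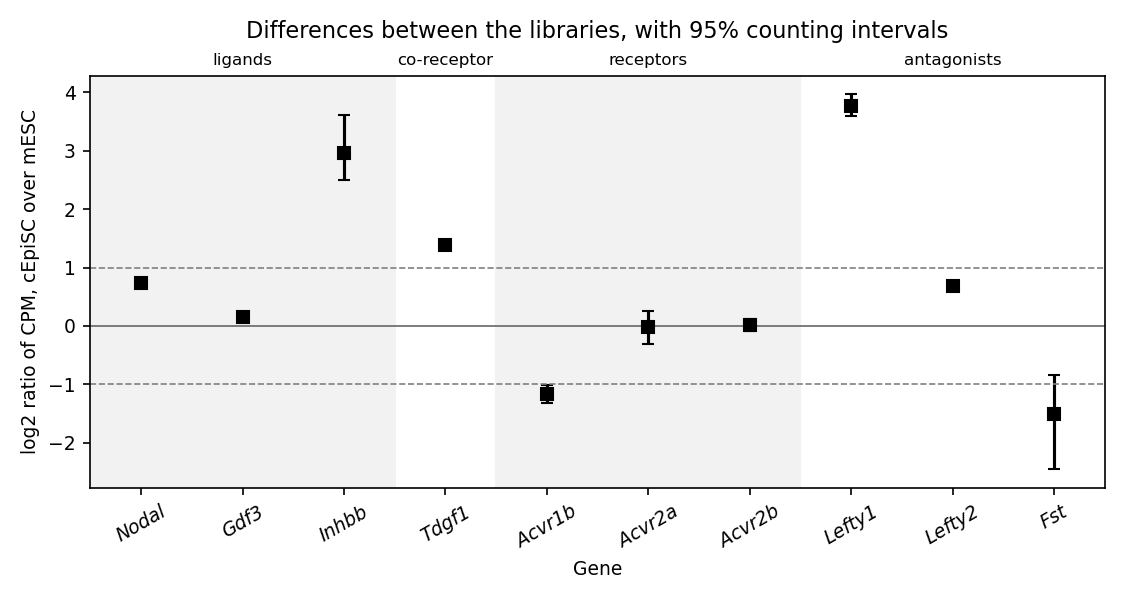
Log2 ratio of CPM (cEpiSC over mESC, prior count 2) of each of the 10 genes by role, with exact 95% counting intervals; the solid line marks equality and the dashed lines 2-fold. Lefty1 (3.77), Inhbb (2.96) and Tdgf1 (1.38) lie above the upper dashed line and Acvr1b (-1.16) and Fst (-1.52) below the lower one.

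Ordered by deposited TPM, the genes in cEpiSC ran Tdgf1, Lefty1, Gdf3, Nodal, Lefty2, Acvr1b, Acvr2b, Inhbb, Acvr2a and Fst. In mESC they ran Tdgf1, Gdf3, Nodal, Lefty2, Acvr1b, Lefty1, Acvr2b, Acvr2a, Fst and Inhbb. Neighbours that did not differ beyond counting error were Lefty1 and Gdf3 in cEpiSC (1.01-fold, 0.965 to 1.06), Acvr1b and Acvr2b in cEpiSC, and Nodal and Lefty2 in mESC (1.04-fold, 0.982 to 1.11). Lefty1 took place 2 in cEpiSC and 6 in mESC, and Inhbb place 8 and 10. Tdgf1, Gdf3, Nodal and Lefty2 were above 90 TPM in both libraries, whereas no receptor gene exceeded 31.8 TPM in either by deposited TPM. With the longest GENCODE vM21 transcript lengths and the counts kept, the highest receptor value was 39.6 TPM, for Acvr2b in mESC. Acvr2b then takes place 6 in cEpiSC and 5 in mESC, Gdf3 place 4 and 2, and Lefty1 place 2 and 7. As the counts were not taken anew, these places do not settle the order. The genes nearest to Lefty1 by distance over log2(TPM + 1) in the 2 libraries were Gadd45a (183 and 20.4 TPM in cEpiSC and mESC, distance 0.398), Bnip3 (174 and 20.1 TPM, 0.423) and Gja1 (132 and 10.9 TPM, 0.845), which over 2 libraries is a weak measure of likeness.

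**Figure D3:**
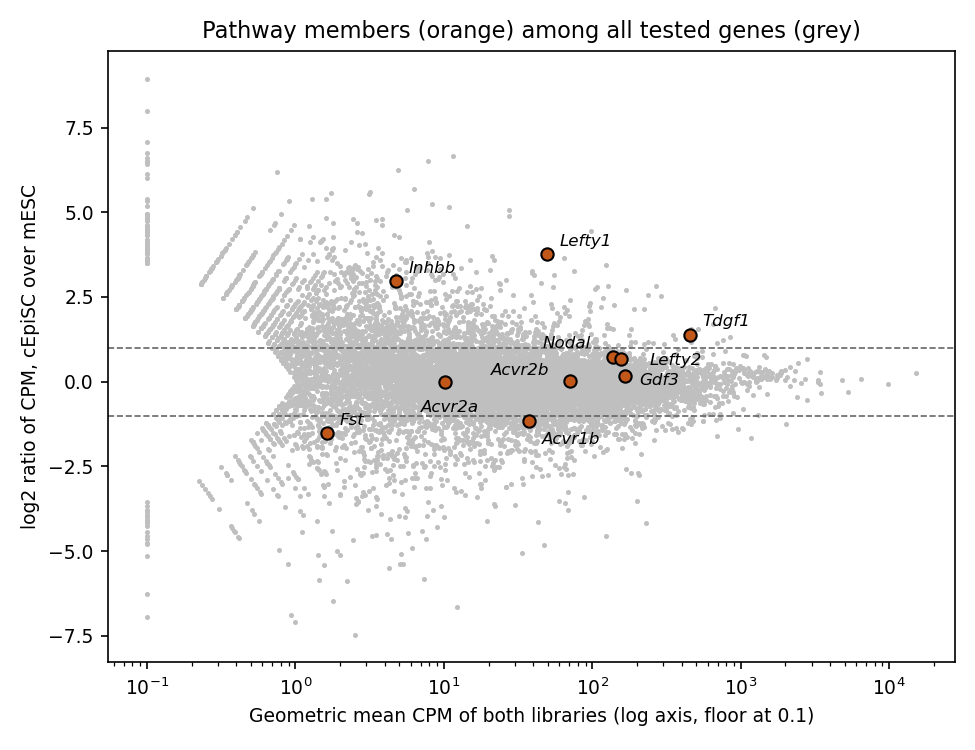
Log2 ratio of CPM (cEpiSC over mESC) against the geometric mean CPM of both libraries on a log axis, for the 13243 genes measured (grey, 1 point per gene, means under 0.1 drawn at 0.1) and the 10 pathway genes (orange). Lefty1 (3.77) and Tdgf1 (1.38) lie in the upper part of the cloud at their abundance, and Gdf3, Acvr2a and Acvr2b lie near 0.

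The other genes of the pathway were taken from lists of 45 genes by role, of which 44 were in the table and 34 passed the abundance filter. Of the 34, 4 exceeded 2-fold upward in cEpiSC, 5 downward and 25 did neither. Among all genes measured the shares were 13.6% upward and 9.25% downward. The counts here and in the lists below are a description and are not read as particular to the pathway. The log2 ratios of the 34 had a median of -0.03, beside -0.02 for all genes. Among other ligands 4 of 10 were measured, of which 1 was higher and 1 lower. Gdf1, a relative of Gdf3, had 106.32 counts in cEpiSC and 0.67 in mESC (5.12 [4.14 to 11.96]). All 100-base windows of its transcript also occur in that of the overlapping gene Cers1, which had 105 and 147 counts. The Gdf1 and Cers1 counts sum to 211 in cEpiSC and 148 in mESC, so the Gdf1 value rests on how the authors' counting divided these reads and is uncertain. Inhbe, another inhibin subunit gene, was lower at 16 counts in cEpiSC and 57 in mESC (-1.79 [-2.81 to -1.09]).

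Of 7 further receptors and co-receptors 5 were measured, with 1 lower and 4 within 2-fold in cEpiSC. Tgfbr2, the type II receptor gene of TGF-beta, had 43 counts in cEpiSC and 115 in mESC (-1.46 [-2.04 to -0.98]). The type I receptor gene Acvr1c, which can serve Nodal in place of Acvr1b, had 0 and 1 counts, and Cfc1, a second co-receptor gene of the Cripto family, had 5 and 5 (both named after their values were seen). Of these pairs of related genes, Acvr1b and Tdgf1 thus had nearly all counts in both libraries. Among 4 other secreted antagonists 3 were measured, with 2 higher and none lower. The follistatin-related genes Fstl1 (19.9 TPM in cEpiSC and 4.72 TPM in mESC, 2.11 [1.89 to 2.36]) and Fstl3 (8.40 and 3.49 TPM, 1.29 [0.91 to 1.73], with shared reads in cEpiSC) were higher, opposite to Fst. Cer1, a Nodal antagonist and target named after its value was seen, had 1 and 0 counts. Of the proprotein convertases, enzymes that cleave Nodal and related precursors, 2 of 3 were measured, with 1 lower: Pcsk6 stood at 27.9 TPM in cEpiSC and 71.6 TPM in mESC (-1.31 [-1.40 to -1.22]).

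All 8 listed intracellular effectors lay within 2-fold, at a median of -0.05. The most abundant were Drap1, whose product restrains FoxH1, at 191 TPM in cEpiSC and 184 TPM in mESC (0.10 [0.01 to 0.19]), and Foxh1 at 121 and 106 TPM (0.31 [0.22 to 0.40], with shared reads). Smad2 stood at 13.2 TPM in cEpiSC and 13.9 TPM in mESC (-0.04 [-0.15 to 0.07]) and Smad3 at 13.4 and 24.0 TPM (-0.81 [-0.95 to -0.68]), both named after their values were seen. The 10 intracellular inhibitors had a median of 0.11, and 9 of them lay within 2-fold. The higher one was Skil, which encodes the corepressor SnoN, at 36.0 TPM in cEpiSC and 9.56 TPM in mESC (1.95 [1.83 to 2.07]).

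Known targets of the pathway outside the 10 genes went in both directions: of 8 listed 6 were measured, and their median was -0.06, with 1 higher and 2 lower. The higher target was Skil, whose values are given above with the inhibitors. Gsc, a homeobox gene of the organizer, had 6 counts in cEpiSC and 264 in mESC, 46.5-fold lower (-5.13 [-7.00 to -4.40]), and ranked 18 from the bottom of the 13243 genes. Mixl1, a homeobox gene of the primitive streak, had 5 and 26 counts (-2.07 [-4.20 to -1.06]). Gsc and Mixl1 also belong to the mesendoderm markers whose summed level is given above.

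**Figure D4:**
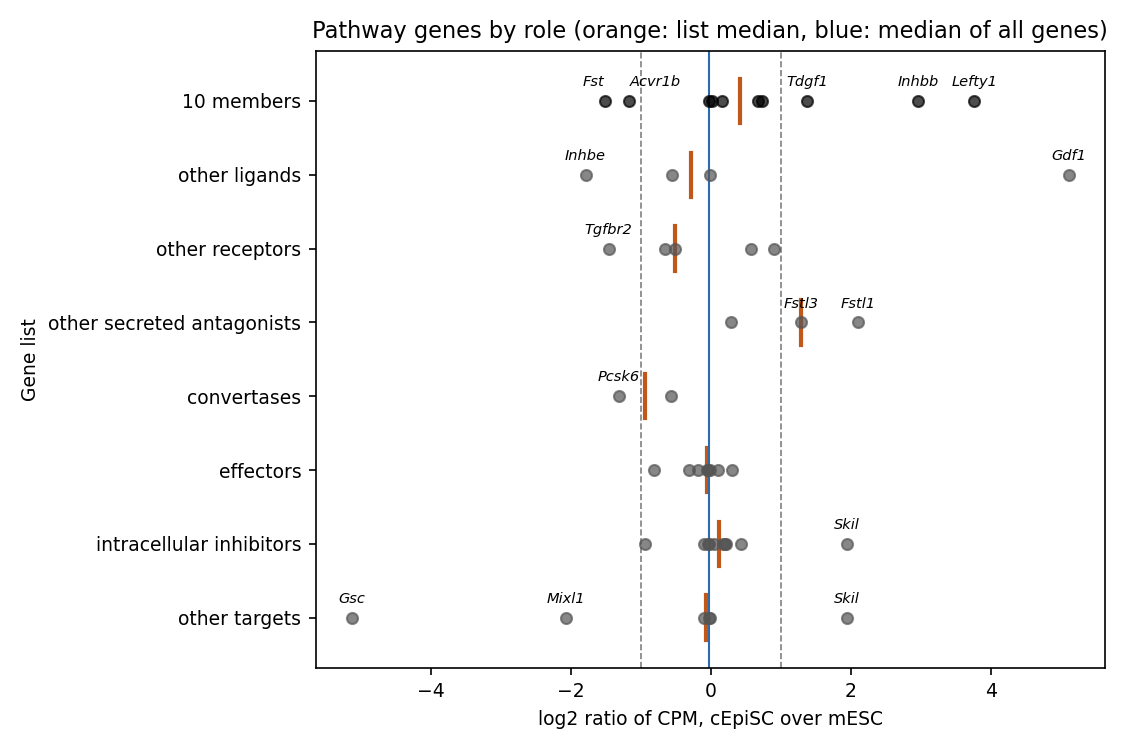
Log2 ratio of CPM (cEpiSC over mESC) for each measured gene of the 10 members and of 7 other lists of the pathway, 1 point per gene, with genes at least 2-fold apart named; orange ticks are list medians, the blue line is the median of all genes (-0.02) and dashed lines mark 2-fold. The 8 effectors all lie between the dashed lines, while the other targets run from -5.13 (Gsc) to 1.95 (Skil).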

How the data were processed

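Polyadenylated RNA from 1 cEpiSC library and 1 mESC library was sequenced as paired reads, per the labels' protocols. RSEM 1.3.1, HISAT2, Bowtie2 and DESeq2 1.34.0, with build GRCm38.p6, are listed in the submitters' processing notes. Which step used each tool, with which annotation and whether by strand, is not given in the sources used here. Per the file headers, the authors deposited read counts, TPM and FPKM per gene. The deposited read counts are estimated counts, not scaled: 11.9% (cEpiSC) and 11.3% (mESC) of genes are more than 0.005 from a whole number. The deposited TPM are per kilobase and sum to the same total in each library, and the deposited FPKM sum to 590682 (cEpiSC) and 543589 (mESC).

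Counts were rounded and scaled with TMM in edgeR 4.0.16 (R 4.3.3; factors 1.03 for cEpiSC and 0.975 for mESC). With 1 library per group no test was possible; a gene reaching 1 CPM in either library was called at 2-fold by size alone, and exact conditional (Clopper-Pearson) and Poisson 95% intervals came from SciPy 1.17.1. The steps were run on simulated counts with Poisson error alone. Such counts check the working of the steps and cannot test error between cultures, PCR copies or shared reads. Implied lengths come from deposited counts, their total and FPKM, since counts over TPM give lengths only up to a scale. Coordinates are RefSeq's, matched by Entrez identifier (17913 genes, all 10 members); promoters are RefSeq's, and transcripts, aligned with Biopython 1.88, and overlaps are from GENCODE vM21.

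The members and lists were chosen with earlier results of these data known. Named genes are the 10 members, up to 4 genes of each other list at least 2-fold apart (the 2 most abundant where none was), the 2 most abundant of each marker list, and the 3 genes nearest Lefty1; others are said to be named after their values were seen. Mstn was not analysed here, and 1 listed target and 1 neural marker are not reported here and were left out of their lists. Alternatives were size factors from DESeq2 1.42.0, library totals, no filter or 5 CPM, prior counts of 0.5 and 5, TPM and FPKM with a pseudocount of 1, centring on deciles of implied length, 1.5-fold, and, added after seeing the data, the members' longest protein-coding GENCODE vM21 transcripts.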

Additional observations from a re-analysis of the deposited data

How the results depend on the processing

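All 10 members kept their call under the 9 alternatives of scaling, filter, prior count, unit and length centring, except Fst. Fst was within 2-fold with TPM (its ratio with FPKM was -0.61, also within 2-fold) and had no value at 5 CPM, so the members lower in cEpiSC numbered 1 with TPM, FPKM and the 5 CPM filter, against 2. At 1.5-fold 5 members were higher in cEpiSC, Nodal and Lefty2 joining the 3. The ranges of the log2 ratio over the alternatives were 3.65 to 3.84 for Lefty1, 1.64 to 3.05 for Inhbb, 1.32 to 1.46 for Tdgf1, 0.68 to 0.81 for Nodal, 0.62 to 0.75 for Lefty2, 0.05 to 0.24 for Gdf3, -0.003 to 0.33 for Acvr2b, -0.02 to 0.12 for Acvr2a and -1.16 to -1.01 for Acvr1b. The other pathway genes lower in cEpiSC numbered 3 at 5 CPM, 3 with TPM, 2 with FPKM and 8 at 1.5-fold, against 5. The median log2 ratio of the other ligands, -0.28, was 0.57 with no filter and 2.28 at 5 CPM, and that of the other secreted antagonists, 1.29, was 0.93 and 1.70. With no filter the ligand median, 0.57, is the value of Inhba, which had 1 count in cEpiSC and 0 in mESC. The 0.93 of the antagonists likewise rests in part on Cer1, with 1 and 0 counts. At 5 CPM only Gdf1 (5.12) and Tgfb1 (-0.55, named after its value was seen) were left among the other ligands. The value 2.28 therefore rests on the uncertain division of reads between Gdf1 and Cers1. The longest GENCODE vM21 transcript lengths were an alternative chosen after seeing the data. With them the ratio of levels turned to 0.968 for Gdf3 over Nodal in cEpiSC and to 0.579 for Acvr1b over Acvr2b in mESC. The counts were kept as deposited, so these turns cannot decide which gene of each pair is more abundant. Of all genes, 2712 were higher with no filter, 970 at 5 CPM, 1091 with TPM, 945 with FPKM and 2746 at 1.5-fold, against 1796; 680 were lower with FPKM and 2499 at 1.5-fold, against 1225. Fewer genes enter under a stricter filter, and pseudocounts weigh on low levels; other causes were not tested. Scaling moved the median of all genes by at most 0.07. No library could be left out. No paired analysis was possible because the groups share fewer than 2 replicate numbers. Depth limits Fst, Inhbb in mESC and Acvr2a most.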
